A study of Homo sapiens with 12 samples.

Results

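Active p65 was set against the empty vector in a human breast cancer line with high HER2. The comparison took 6 of the 12 arrays in the series, 3 of the line SKR6CA and 3 of the line SKR6-Vector, and covered all 19775 genes that had a probe set matching no other gene. Each gene was read by 1 such probe set, the one with the highest mean over the 12 arrays, out of 54675 probe sets on a 3′ array hybridised with biotin-labelled RNA primed with oligo-dT. SKR6CA cells carried a retrovirus for relA/p65 of NF-κB in a constitutively active form (CAp65), and SKR6-Vector cells carried the empty retroviral vector pQCXIP. Both lines were made from SKR6 and both were selected with puromycin. SKR6 itself, sorted by FACS from the HER2-amplified line SKBR-3 for elevated HER2, gave 3 further arrays that are set beside the comparison. The remaining 3 arrays were of SKR6LR, SKR6 cells selected in lapatinib, which entered the model only as a source of spread between cultures. All cultures grew for 48 hours in RPMI medium with fetal bovine serum before total RNA was taken. The sources used here do not give the change that makes p65 constitutively active, whether a transduced line was a pool or a clone, or how many transductions were made. A difference between the lines therefore holds for these lines, and a change due to p65 cannot be told apart from another difference between the transduced populations.

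NF-kB is a family of dimeric transcription factors that inhibitory IkB proteins hold in the cytoplasm. Signals from TNF, interleukin or Toll-like receptors lead to the destruction of IkB, after which p65 (encoded by RELA) and its partners bind kappa-B sites near genes for chemokines, cytokines, adhesion molecules and the pathway's own inhibitors. In breast cancer cells the pathway is known for driving inflammatory and survival genes. A constitutively active form of p65 is meant to act without that signal. Whether the form used here escapes IkB is not given.

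Values are log2 expression values, in which a difference of 1 is a doubling. The labels call the 3 cultures of a line biological replicates without saying that they were derived separately, so p-values measure the spread between these cultures, and the number of arrays limits the precision. No scan date or other batch is given. The array medians lay between 5.74 and 5.77, and the correlations over all genes were 0.9983 to 0.9986 within SKR6CA, 0.9987 within SKR6-Vector, and 0.9879 to 0.9888 between the lines. As a sign of RNA quality, beta-actin read at its 3′ end exceeded its 5′ end by 1.19, 1.48 and 1.73 on the SKR6CA arrays and 1.51, 1.3 and 1.39 on the SKR6-Vector arrays, so the groups overlapped. Of 11 luminal and HER2-amplicon markers, 10 lay between 9.87 and 14.8 on all 6 arrays. The exception was the epithelial cadherin CDH1, at 4.18 to 4.39, a defining epithelial marker that was low in both lines. In RNA from whole cultures, fewer cells of a kind and less RNA per cell cannot be told apart.

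The RELA transcript did not differ detectably. It stood at 9.35, 9.34 and 9.33 in SKR6CA and at 9.42, 9.37 and 9.41 in SKR6-Vector, a log2 difference of -0.056 (SE 0.0938, adjusted p = 0.753), and at 9.22, 9.07 and 9.2 in SKR6. The second RELA probe set gave 0.20 (adjusted p = 0.259). Which part of the transcript the construct holds is not given, so these probe sets do not settle how much transgene the cells made. ERBB2, the amplified HER2 gene, stood at 14.06, 14 and 14.06 in SKR6CA, 13.92, 13.93 and 13.92 in SKR6-Vector and 13.80, 13.85 and 13.84 in SKR6, and its difference of 0.12 against the vector was not called (adjusted p = 0.156).

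Of the 19775 genes, limma called 5251 (26.6%) between SKR6CA and SKR6-Vector with an adjusted p below 0.05. In SKR6CA 2305 genes (11.7%) were higher and 2946 (14.9%) were lower. Most calls were small. A difference of at least 1 was reached by 213 called genes above the vector (1.08% of all) and by 355 below it (1.8%), 33 rose and 72 fell by at least 2, and 9 rose and 14 fell by at least 3. A further 3893 calls lay between 0.25 and 1 in size and 790 below 0.25. The smallest called difference was 0.14, and the median SE was 0.0847. The median difference over all genes was 0.0033. The 3 arrays of each line did not overlap for 9005 genes (45.5%), far more than were called. The share of higher calls was 43.9% as deposited and 45.1% after cyclic loess, but 56.2% after each array was centred on its median, so the balance of small rises and falls depends on the scaling.

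Calls depended on the level of a gene. Among genes with a mean under 5 on the 6 arrays, 239 of 5098 (4.69%) were called, and between 5 and 7 the share was 852 of 5139 (16.6%). It was 1654 of 3839 (43.1%) between 7 and 9, 1720 of 3689 (46.6%) between 9 and 11, and 706 of 1690 (41.8%) between 11 and 13. At 13 and over, 80 of 320 genes (25%) were called, and no difference there exceeded 1.45 upward or -0.405 downward. The plot of difference against level shows this shape, with a narrow band at the top of the range. The largest rises (CFB, CCL20, ATP11A) and the largest falls (OLFM4, SCIN, GABBR2) lie in its middle.

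**Figure D1:**
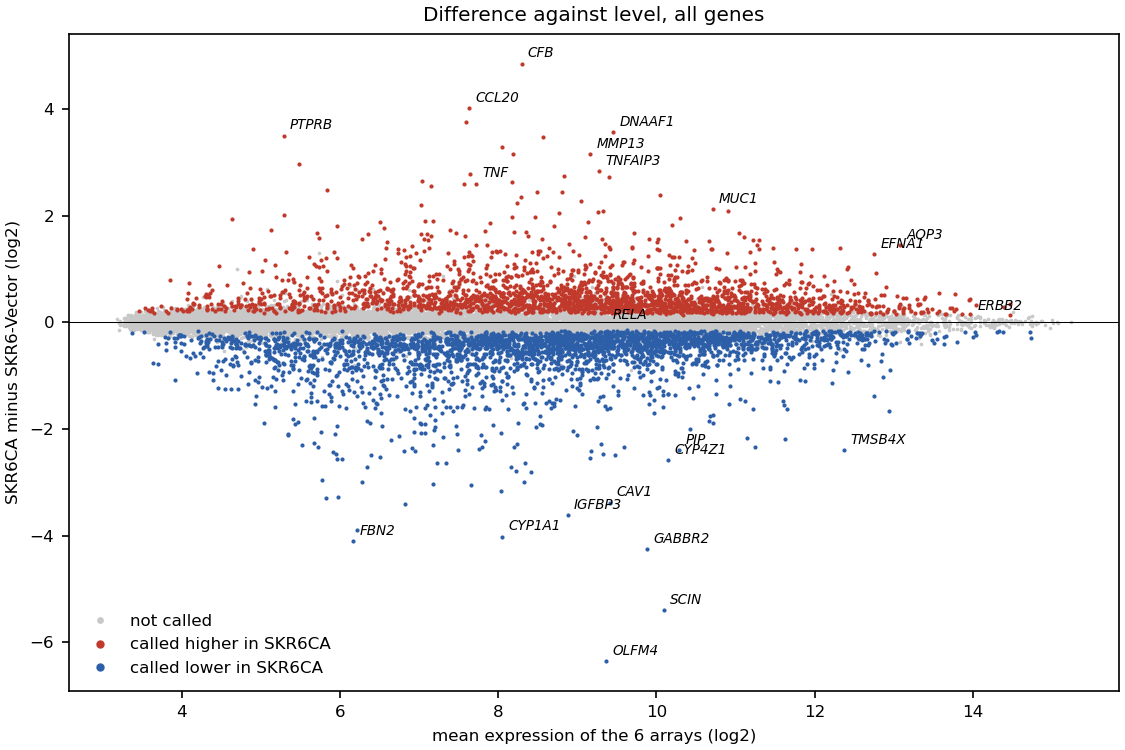
Difference of SKR6CA minus SKR6-Vector (log2, vertical axis) against the mean of the 6 arrays (log2, horizontal axis) for 19775 genes. Called genes are red where higher and blue where lower in SKR6CA, 2305 and 2946 of them, genes that were not called are grey, and 22 genes are labelled.

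A chemokine, CCL20, and an inhibitor of NF-kB, TNFAIP3, were among the largest rises. CCL20, a chemokine that draws immature dendritic cells and Th17 cells, stood at 9.38, 9.67 and 9.88 in SKR6CA, against 5.7, 5.53 and 5.65 in SKR6-Vector and 5.52, 5.28 and 5.18 in SKR6. All 3 SKR6CA arrays lay above every array of both other lines, and the difference of 4.02 (SE 0.222, adjusted p = 7.91e-08) is 16.2-fold. TNFAIP3, the A20 protein that edits ubiquitin chains and shuts NF-kB signalling off, stood at 10.63, 10.66 and 10.77 in SKR6CA, against 7.79, 7.93 and 7.83 in SKR6-Vector and 8.11, 7.85 and 7.99 in SKR6. It rose by 2.84 (SE 0.299, adjusted p = 1.91e-05), and its second probe set gave 2.88. SGPP2, a phosphatase of sphingosine 1-phosphate, stood at 9.0, 9.09 and 9.01 in SKR6CA, against 6.21, 6.22 and 6.32 in SKR6-Vector and 6.66, 6.67 and 6.79 in SKR6, a difference of 2.78 (SE 0.136, adjusted p = 2.71e-08). All 3 of its probe sets were called higher, at 2.78, 1.5 and 0.37. The smaller sizes came from the other probe sets, so the size of its rise depends on the probe set while its direction does not.

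Promoters of genes that rose are shown because p65 binds kappa-B sites, together with that of a gene that fell and holds the same motif. The sequences are from RefSeq, build GRCh38.p14, read along the gene's own strand and ending before its annotated start. Capitals mark matches to the kappa-B consensus motif of 10 bases, searched on both strands with overlapping matches kept. The stretches lie at chr2:227813723-227813812 (plus strand, CCL20), chr6:137867152-137867253 (plus, TNFAIP3), chr2:222423738-222423898 (plus, SGPP2), chr4:73869274-73869364 (plus, CXCL1), chr4:76023570-76023714 (minus, CXCL10), chr14:35404781-35404870 (minus, NFKBIA) and chr1:47066987-47067076 (plus, CYP4Z1).
CCL20: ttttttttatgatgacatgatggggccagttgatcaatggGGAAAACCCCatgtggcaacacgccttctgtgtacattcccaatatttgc
TNFAIP3: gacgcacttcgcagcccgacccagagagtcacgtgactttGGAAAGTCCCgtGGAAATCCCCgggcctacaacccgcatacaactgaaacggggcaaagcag
SGPP2: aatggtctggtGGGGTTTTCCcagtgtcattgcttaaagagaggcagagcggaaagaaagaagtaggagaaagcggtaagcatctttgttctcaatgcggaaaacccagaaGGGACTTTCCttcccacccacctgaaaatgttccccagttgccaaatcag
CXCL1: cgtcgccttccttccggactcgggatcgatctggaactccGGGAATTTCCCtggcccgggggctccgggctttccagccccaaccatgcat
CXCL10: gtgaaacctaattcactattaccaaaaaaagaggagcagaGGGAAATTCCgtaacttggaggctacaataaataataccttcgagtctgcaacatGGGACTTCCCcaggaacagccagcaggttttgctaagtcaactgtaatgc
NFKBIA: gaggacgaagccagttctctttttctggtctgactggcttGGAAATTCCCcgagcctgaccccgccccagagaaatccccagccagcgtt
CYP4Z1: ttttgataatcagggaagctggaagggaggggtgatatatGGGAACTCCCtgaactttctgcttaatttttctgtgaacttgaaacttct

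The TNFAIP3 promoter held 2 matches with 2 bases between them, SGPP2 and CXCL10 held 2 each further apart, and the 2 matches of CXCL1 overlap, starting 1 base apart. CYP4Z1, a fatty acid hydroxylase of breast tissue, held a match as well although it fell (its values are given below). Over windows of 250 bases before and 50 after the start, 1002 of 15384 measured genes with a window held the motif (6.51%), against 2075 of 35116 RefSeq windows (5.91%). The share was 125 of 1870 (6.68%) among genes called higher and 137 of 2409 (5.69%) among those called lower. Among genes called higher by at least 1 it was 19 of 166 (11.4%), and among those called lower by at least 1 it was 21 of 286 (7.34%). Of the 15 largest rises 10 had a window and 3 held the motif (CCL20, TNFAIP3 and SGPP2). Of the 15 largest falls 13 had a window and 0 held it. Among all genes picked by the naming rule that had a window, 14 of 89 higher and 10 of 94 lower ones held it. The promoters printed above were taken from genes that hold it. These are descriptions of the letters in a window, and a window without a match says nothing about binding elsewhere.

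List counts are to be read beside the shares over all genes, 11.7% called higher and 14.9% called lower. Among the NF-kB subunits, 3 of 5 rose and 0 fell, with a median of 0.44. RELB, the subunit of the non-canonical pathway, stood at 7.23, 7.11 and 7.38 in SKR6CA and 6.4, 6.55 and 6.57 in SKR6-Vector, a difference of 0.73 (adjusted p = 0.000255). REL rose by 0.46 (adjusted p = 0.0107) and NFKB1, the precursor of p50, by 0.44 (adjusted p = 0.00411). The call of REL is lost without SKR6CA replicate 3, where its difference is 0.37 (adjusted p = 0.0535). Against SKR6 the differences were 0.85, 0.57 and 0.52, and between SKR6-Vector and SKR6 they were 0.11, 0.10 and 0.08, with 0 of the 5 subunits called. NFKB2 differed by 0.38 without a call.

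Of 21 IkB proteins and other brakes on the pathway, 5 rose and 1 fell, with a median of 0.083. NFKBIA, the IkB that is rebuilt after each NF-kB signal, stood at 12.62, 12.55 and 12.47 in SKR6CA, against 11.67, 11.67 and 11.70 in SKR6-Vector and 11.88, 11.80 and 11.87 in SKR6. It rose by 0.87 (SE 0.172, adjusted p = 0.00223), less than TNFAIP3 although both are NF-kB targets. TNIP1, the partner protein of A20, rose by 0.72 and NFKBIE by 0.40. OTUD7B, a deubiquitinase that restrains the non-canonical pathway, was lower by comparison with the vector, at -0.49 (adjusted p = 0.000423), but differed from SKR6 by 0.018. The other 15 members were not called.

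Few chemokines were called, and those that rose did so by more than 1. Of 32 measured, 5 rose, 1 fell and 26 were not called, beside 11.7% higher and 14.9% lower over all genes, and the median was 0.077. CCL2, which recruits monocytes, stood at 10.30, 10.18 and 10.41 in SKR6CA, against 8.27, 8.17 and 8.25 in SKR6-Vector and 7.48, 7.39 and 7.25 in SKR6, a rise of 2.07 (SE 0.295, adjusted p = 0.000207). CXCL10, the interferon-inducible ligand of CXCR3, stood at 7.35, 7.46 and 7.46 in SKR6CA and 6.24, 5.86 and 6.02 in SKR6-Vector, a rise of 1.38 (adjusted p = 0.00828). SKR6 lay between them, at 6.7, 6.73 and 6.73, and the difference from SKR6 was not called (0.71, adjusted p = 0.164). The neutrophil chemokine CXCL1 rose by 1.21 with SKR6CA arrays at 6.61, 6.5 and 6.17 and SKR6-Vector arrays at 5.25, 5.23 and 5.16. CXCL16, a membrane-bound chemokine, rose by 1.09.

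TNF ligands and receptors were mixed. Of 16 TNF superfamily ligands 2 rose and 1 fell, with a median of 0.031. TNF stood at 8.94, 9.07 and 9.05 in SKR6CA, against 6.54, 6.43 and 6.29 in SKR6-Vector and 6.11, 6.33 and 6.21 in SKR6, a rise of 2.6 (SE 0.24, adjusted p = 6.24e-06), and the arrays of SKR6CA stood clear of both other lines. For every gene given array by array here, the arrays of SKR6CA and SKR6-Vector did not overlap. TNFSF9, the ligand of the T-cell receptor 4-1BB, rose by 0.58. TNFSF15, a ligand of the death-domain receptor DR3, went the other way at -1.84 (adjusted p = 0.000155), with 6.18, 6.25 and 6.39 in SKR6CA, 8.12, 8.12 and 8.11 in SKR6-Vector and 6.52, 6.71 and 6.6 in SKR6. Of 31 TNF receptors and TRAF adaptors 5 rose and 3 fell. The TRAIL receptor TNFRSF10B rose by 0.99 and the lymphotoxin receptor LTBR by 0.73, but as means of all their probe sets they gave 0.41 and 0.21, with no call. TNFRSF10B was at 9.22, 9.23 and 9.29 in SKR6CA and 8.22, 8.22 and 8.36 in SKR6-Vector but at 9.29, 9.25 and 9.48 in SKR6, so its distance from SKR6 was -0.091 (adjusted p = 0.684).

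Interleukin ligands mostly stayed uncalled, and receptors moved in both directions. Of 31 interleukin ligands 2 rose and 2 fell. IL20, a cytokine that acts on epithelia, stood at 7.16, 7.49 and 6.88 in SKR6CA, against 5.59, 5.13 and 5.87 in SKR6-Vector, a rise of 1.65 (adjusted p = 0.00346), and IL18 fell with a difference of -0.58. Of 45 interleukin receptors, JAK-STAT members and SOCS inhibitors 7 rose and 9 fell, but 9 rose and 5 fell after median centring, so the balance depends on the scaling. The IL-6 receptor IL6R stood at 10.73, 10.90 and 10.76 in SKR6CA, 9.19, 9.21 and 9.3 in SKR6-Vector and 11.42, 11.42 and 11.46 in SKR6. It rose by 1.56 against the vector (adjusted p = 5.52e-07) but was below SKR6, at -0.64 (adjusted p = 0.000972), since the vector line held the lowest level. IL4R rose by 1.21 and was above SKR6 too, by 0.76. SOCS2, an inhibitor of growth hormone signalling, rose by 0.78, and IFNAR1, a chain of the type I interferon receptor, fell with a difference of -0.80, or -0.23 with no call as the mean of its probe sets.

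Of 29 Toll-like receptors and innate adaptors 8 rose and 1 fell, so 31% were called, beside 26.6% of all genes. NOD2, a sensor of bacterial peptidoglycan, stood at 7.18, 7.44 and 7.51 in SKR6CA, 6.04, 5.97 and 6.27 in SKR6-Vector and 7.24, 7.23 and 7.42 in SKR6, a rise of 1.29 against the vector (adjusted p = 0.0131) and a difference of 0.081 from SKR6. IKBKE, a kinase related to the IKK complex, rose by 1.05 (adjusted p = 1.25e-05) and the necroptosis kinase RIPK3 by 0.68. RIPK3 stood at 7.29, 7.48 and 7.2 in SKR6CA, 6.64, 6.63 and 6.65 in SKR6-Vector and 6.68, 6.64 and 6.58 in SKR6, and both control lines were close together. RIPK2, the kinase downstream of NOD2, rose by 0.78 (adjusted p = 0.0242), but its call was lost when any 1 of the 6 arrays was left out, with differences of 0.73 to 0.81 and adjusted p of 0.0556 to 0.0788. TLR5, the receptor of flagellin, was the member that fell, at -0.82.

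Some genes for secreted proteins of the acute phase rose by large amounts, and the falls were smaller. Of 29 acute-phase, antimicrobial and complement genes 6 rose and 4 fell, beside 11.7% higher and 14.9% lower over all genes. The differences in the list ran from -1.37 to 4.85. CFB, a factor of the alternative complement pathway, had the largest rise of all genes, with 10.65, 10.73 and 10.78 in SKR6CA against 6.02, 6.02 and 5.55 in SKR6-Vector, a difference of 4.85 (SE 0.584, adjusted p = 5.51e-05). It rests on a probe set of the _s_at kind, which can match several transcripts, and the other CFB probe set gave 0.065. ORM1, an acute-phase glycoprotein, stood at 8.78, 8.95 and 8.85 in SKR6CA, 6.11, 6.15 and 6.55 in SKR6-Vector and 8.15, 8.15 and 8.24 in SKR6, a rise of 2.59 against the vector (adjusted p = 8.22e-05) but no call against SKR6 (0.68, adjusted p = 0.17). PIGR, which carries immunoglobulin A across epithelia, rose by 2.44, the protease inhibitor SERPINA3 by 1.87 and ceruloplasmin (CP) by 1.56. FGG, the gamma chain of fibrinogen, stood at 8.31, 8.67 and 8.32 in SKR6CA, against 5.85, 6.02 and 5.75 in SKR6-Vector and 5.95, 5.92 and 6.02 in SKR6, a rise of 2.56 (adjusted p = 7.27e-09). Of the 4 that fell, the protease inhibitor SERPINA1 was at -1.16 and the extracellular chaperone CLU at -1.12, both named after their values were seen. SERPINA1 gave 0.097, with no call, without its _x_at and _s_at probe sets.

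The plot of the largest differences shows the arrays behind the 15 rises and 15 falls. In the upper panel the SKR6 arrays of MMP13 lie below and those of IFITM1 far above the vector line, while for CCL20, PTPRB, MMP1, GBP1 and MANEAL both control lines lie close together. GBP1, an interferon-inducible GTPase, stood at 10.07, 10.23 and 10.28 in SKR6CA, 7.5, 7.29 and 7.59 in SKR6-Vector and 7.31, 7.33 and 7.42 in SKR6, a rise of 2.74 (SE 0.153, adjusted p = 8.39e-08), and its 4 probe sets gave 1.13 to 3.09. IFITM1, a membrane protein that blocks the entry of viruses, stood at 10.71, 10.79 and 10.76 in SKR6CA and 8.05, 8.06 and 7.99 in SKR6-Vector, a rise of 2.72, but at 10.60, 10.68 and 10.78 in SKR6, from which SKR6CA differed by 0.067 (adjusted p = 0.787). OAS1, an interferon-inducible sensor of double-stranded RNA, followed the same order, with 8.08, 8.19 and 8.09 in SKR6CA, 6.13, 5.79 and 5.86 in SKR6-Vector and 7.77, 7.89 and 8.0 in SKR6. GBP1 was thus above both control lines, whereas IFITM1 and OAS1 were low in the vector line alone.

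**Figure D2:**
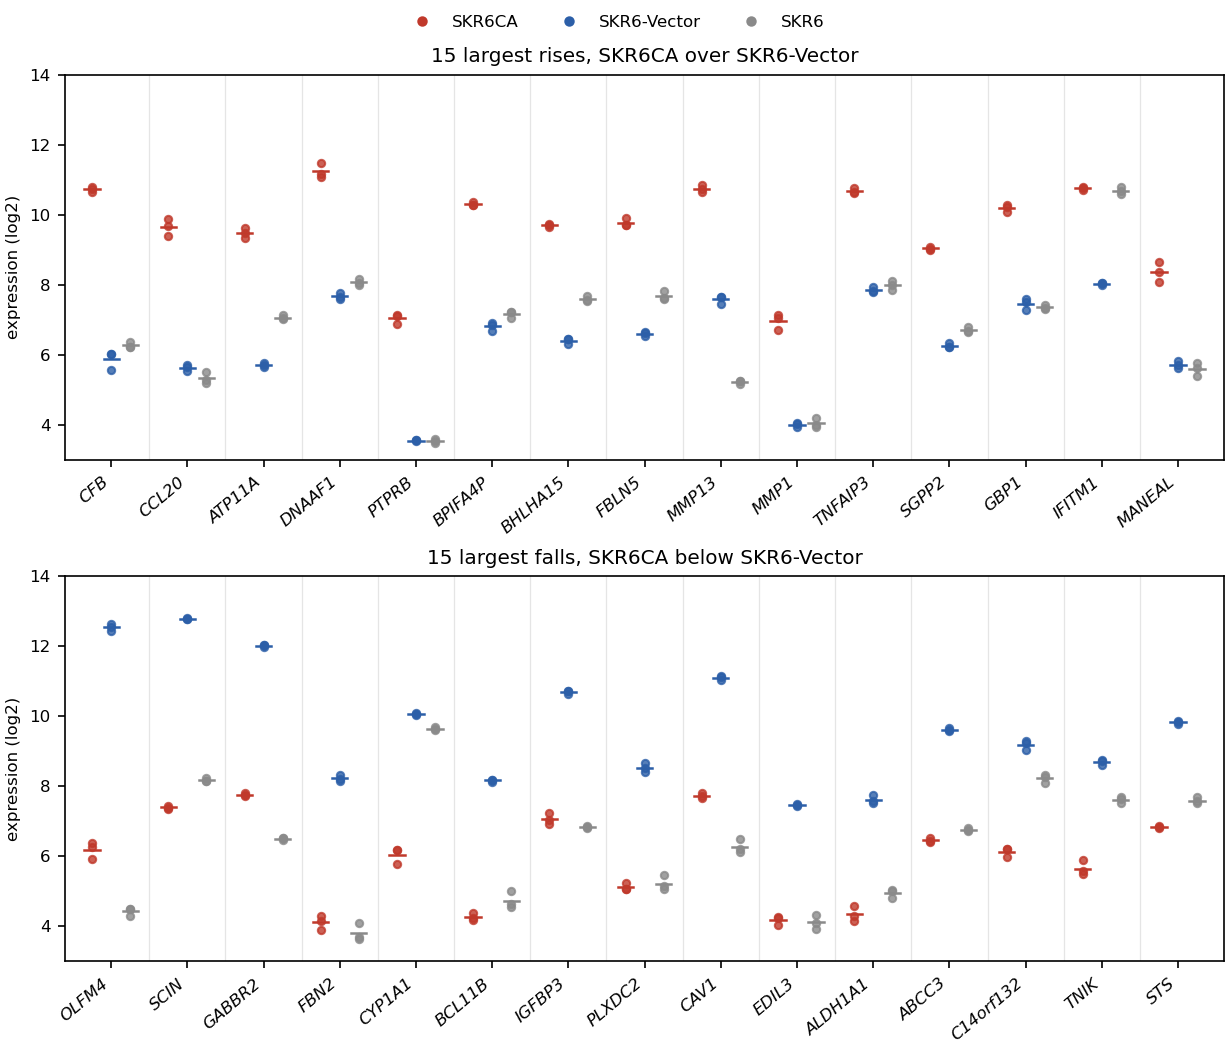
Expression (log2, vertical axis) of the 15 genes with the largest rises (upper panel) and the 15 with the largest falls (lower panel) of SKR6CA against SKR6-Vector, among called genes without overlap. Each point is 1 array of SKR6CA (red), SKR6-Vector (blue) or SKR6 (grey) and each bar the mean of 3. In the lower panel the SKR6 points lie nearer to SKR6CA than to SKR6-Vector in all genes but CYP1A1, C14orf132 and TNIK.

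Many early-response transcription factors rose. Of 30 measured AP-1, EGR, KLF, NR4A and related genes 15 rose, 0 fell and 15 were not called, with a median of 0.37 against 0.0033 over all genes. Without the SKR6LR arrays 17 rose and 2 fell, and with the 6 compared arrays alone 18 and 2. Without probe sets of the _x_at and _s_at kinds 9 rose and 0 fell. EGR1, a zinc-finger factor made within minutes of growth factor signals, stood at 12.37, 12.55 and 12.43 in SKR6CA, 11.17, 10.95 and 11.10 in SKR6-Vector and 11.46, 11.16 and 11.06 in SKR6, a rise of 1.38 (SE 0.113, adjusted p = 2.35e-06). JUN, a subunit of AP-1, stood at 11.95, 12.08 and 12.02 in SKR6CA, 11.15, 10.92 and 11.10 in SKR6-Vector and 10.64, 10.27 and 10.38 in SKR6, a rise of 0.96 (adjusted p = 1.35e-05). KLF6 stood at 10.79, 10.84 and 10.77 in SKR6CA, 9.69, 9.5 and 9.55 in SKR6-Vector and 9.54, 9.58 and 9.5 in SKR6, a rise of 1.22 (adjusted p = 2.98e-06). In these 3 genes the SKR6CA arrays stood above every array of both other lines. MAFF, a small MAF factor, rose by 1.36 and the orphan nuclear receptor NR4A1 by 1.61, though NR4A1 gave 0.083 when its probe sets of the _x_at and _s_at kinds were left out. NR4A2 rose by 0.93 and JUND by 0.58, both named after their values were seen. Against SKR6, 14 members were higher and 2 lower with a median of 0.35, while SKR6-Vector differed from SKR6 by a median of -0.019. For all genes 9.97% were called higher and 14.4% lower in SKR6CA than in SKR6 (24.3% in all), and 12.2% higher and 13.4% lower in SKR6-Vector than in SKR6 (25.7% in all).

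Genes of protein folding in the endoplasmic reticulum rose as well, by less. Of 26 chaperones and secretory-stress factors 16 rose and 0 fell, with a median of 0.24. BHLHA15 (MIST1), a transcription factor of secretory cells, stood apart with 9.64, 9.74 and 9.69 in SKR6CA, 6.3, 6.45 and 6.45 in SKR6-Vector and 7.54, 7.69 and 7.57 in SKR6, a rise of 3.29 (SE 0.0843, adjusted p = 1.11e-10). The stress sensors EIF2AK3 (PERK) and ERN1 (IRE1) rose by 0.70 and 0.66, and the co-chaperones SDF2L1 and HYOU1 by 0.55 and 0.52. The main chaperone of the compartment, HSPA5 (BiP), stood at 13.46, 13.59 and 13.50 in SKR6CA, 13.07, 13.04 and 13.11 in SKR6-Vector and 13.13, 13.10 and 13.11 in SKR6, a rise of 0.44 (adjusted p = 0.000116), and was named after its value was seen. Against SKR6, 15 members were higher. Chaperones of the cytosol did not share this, with 0 of 18 higher and 3 lower, among them HSPA2 at -1.37 and CHORDC1 at -0.80. CHORDC1 gave -0.17 without its _s_at probe set.

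Of 35 amino-acid transporters and enzymes 12 rose and 4 fell, with a median of 0.19. Against SKR6, 11 were higher and 5 lower, with a median of 0.018. The glutamate transporter SLC1A1 stood at 6.96, 7.22 and 7.04 in SKR6CA, 4.59, 4.68 and 4.53 in SKR6-Vector and 7.43, 7.57 and 7.58 in SKR6, a rise of 2.48 against the vector (adjusted p = 2.33e-08) but a difference of -0.45 from SKR6. The cystine transporter SLC7A11 stood at 9.13, 9.12 and 9.25 in SKR6CA, 7.19, 7.38 and 7.01 in SKR6-Vector and 7.62, 7.62 and 7.63 in SKR6, a rise of 1.98 (adjusted p = 1.24e-05) that was 1.54 against SKR6. The large neutral amino-acid transporter SLC7A5 stood at 12.52, 12.48 and 12.53 in SKR6CA, 11.78, 11.81 and 11.83 in SKR6-Vector and 11.86, 11.78 and 11.82 in SKR6, and rose by 0.70 against the vector and by 0.69 against SKR6. SLC1A1 was thus low in the vector line, while SLC7A11 and SLC7A5 were high in SKR6CA against both. SLC43A2, another carrier of neutral amino acids, rose by 2.63 and by 1.28 on its second probe set. SLC3A2, the partner chain of SLC7A5, fell with a difference of -0.63, named after its value was seen.

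Among proteasome subunits the largest rises were in the inducible members. Of 19 measured 8 rose and 4 fell. The immunoproteasome subunits PSMB8, PSMB10 and PSMB9, which replace their constitutive counterparts after interferon or TNF, rose by 0.89, 0.84 and 0.77. PSMB8 stood at 10.60, 10.58 and 10.57 in SKR6CA, 9.6, 9.74 and 9.75 in SKR6-Vector and 9.41, 9.42 and 9.58 in SKR6. The 4 that fell were other subunits, with differences of -0.16 to -0.27. After median centring the counts were 10 higher and 1 lower, so these small falls depend on the scaling.

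The plot of calls by gene list sets these groups beside the rest of the 40 lists. The longest bars to the right belong to ER chaperones, NF-kB subunits and early-response factors, and the longest to the left to actin, caveola and contractile genes. Among 17 cytosolic aminoacyl-tRNA synthetases 3 rose and 0 fell, among 31 cytosolic ribosomal proteins 1 rose and 2 fell, and among 16 metallothioneins and zinc transporters 4 rose and 3 fell.

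**Figure D3:**
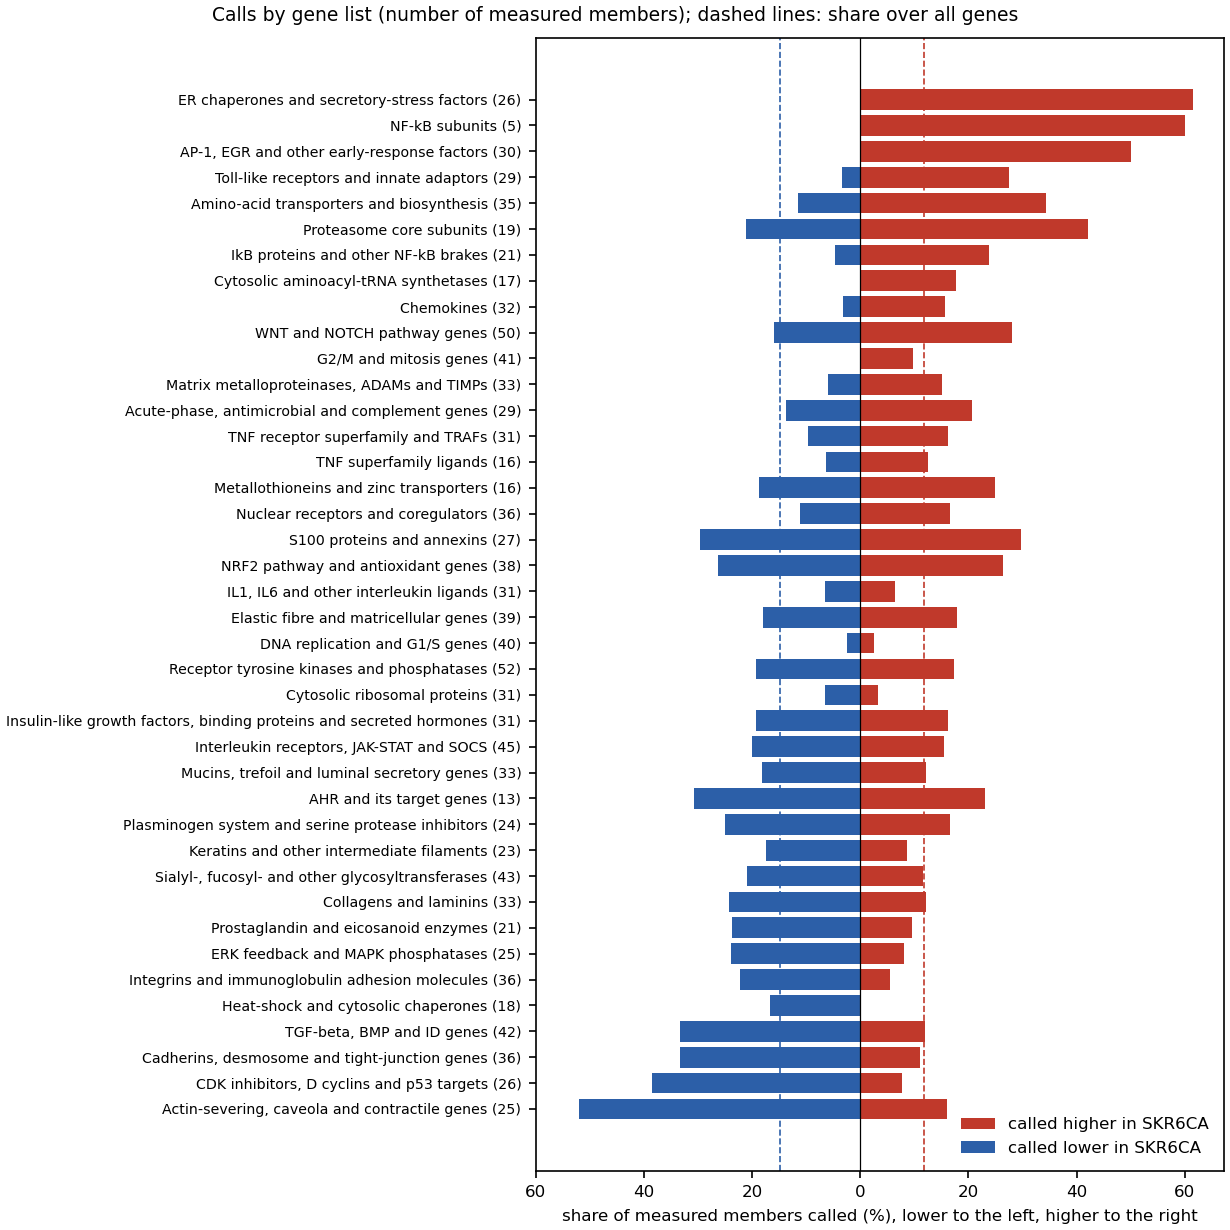
Share of the measured members of 40 gene lists called higher (red, to the right) or lower (blue, to the left) in SKR6CA than in SKR6-Vector, in percent. Dashed lines mark 11.7% higher and 14.9% lower over all genes, and the number of measured members stands after each name.

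MMP13, MMP1, FBLN5 and EFEMP1 were among the matrix genes that rose, and FBN1, FBN2, COL5A1 and COL5A2 among those that fell. Of 33 metalloproteinases, ADAMs and TIMPs 5 rose and 2 fell. MMP13, a collagenase that cleaves fibrillar collagen, stood at 10.64, 10.72 and 10.86 in SKR6CA, 7.45, 7.64 and 7.66 in SKR6-Vector and 5.25, 5.15 and 5.24 in SKR6, a rise of 3.15 (SE 0.0863, adjusted p = 1.57e-10). The vector line was itself above SKR6, by 2.37, so the distance of SKR6CA from SKR6 was 5.52. MMP1, the interstitial collagenase, stood at 7.12, 7.06 and 6.71 in SKR6CA, 4.05, 3.93 and 4.02 in SKR6-Vector and 3.99, 3.93 and 4.2 in SKR6, a rise of 2.96 (adjusted p = 3.09e-09) with both control lines alike. TIMP1, an inhibitor of these enzymes, rose by 0.78 against the vector but stood at -0.48 against SKR6 without a call. Of 39 elastic-fibre and matricellular genes 7 rose and 7 fell. FBLN5, a fibulin that organises elastic fibres, stood at 9.89, 9.69 and 9.71 in SKR6CA, 6.52, 6.66 and 6.63 in SKR6-Vector and 7.81, 7.58 and 7.63 in SKR6, a rise of 3.16 (adjusted p = 4.9e-10), and EFEMP1 (fibulin-3) rose by 2.09. The fibrillins FBN1 and FBN2 were lower, at -2.16 and -4.11, but the other FBN2 probe sets gave -0.015 and -0.18, and FBN1, whose probe set outside the _x_at and _s_at kinds gave -0.48 with no call, was above SKR6 by 0.82. MGP, an inhibitor of calcification, fell to 8.18, 8.19 and 8.1 in SKR6CA, against 10.41, 10.48 and 10.45 in SKR6-Vector, a difference of -2.29 (adjusted p = 3.57e-06). Of 33 collagens and laminins 4 rose and 8 fell, with COL5A2 at -2.47 and COL5A1 at -2.3. COL5A2 stood at 8.2, 8.02 and 8.05 in SKR6CA, 10.54, 10.61 and 10.54 in SKR6-Vector and 8.25, 8.24 and 8.22 in SKR6.

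More genes of the actin cytoskeleton, caveolae and contraction fell than rose. Of 25 measured 13 fell, 4 rose and 8 were not called, with a median of -0.50. SCIN, a calcium-dependent actin-severing protein, stood at 7.35, 7.44 and 7.39 in SKR6CA, 12.81, 12.77 and 12.78 in SKR6-Vector and 8.16, 8.23 and 8.16 in SKR6, a difference of -5.4 (SE 0.0717, adjusted p = 4.74e-13), and its 4 probe sets gave -1.52 to -6.02. CAV1, the coat protein of caveolae, stood at 7.8, 7.67 and 7.71 in SKR6CA, 11.12, 11.04 and 11.15 in SKR6-Vector and 6.5, 6.13 and 6.2 in SKR6, a difference of -3.38 (SE 0.0869, adjusted p = 1.11e-10). In both genes the vector line was the highest of the 3, and SKR6CA lay between it and SKR6 for CAV1 and below both for SCIN. The myosin kinase MYLK differed by -2.35, caldesmon (CALD1) by -1.54 and smooth muscle actin (ACTA2) by -1.38. Against SKR6, MYLK was at -0.13 (adjusted p = 0.788), CALD1 at -1.0 and ACTA2 at 0.78. Over the list SKR6-Vector was above SKR6 by a median of 0.66, with 17 members higher and 2 lower, while SKR6CA against SKR6 gave 9 higher and 5 lower.

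In the TGF-beta and BMP family, too, falls outnumbered rises against the vector, though not against SKR6. Of 42 ligands, receptors, inhibitors and ID factors 14 fell and 5 rose, with a median of -0.072. Against SKR6, 13 were higher and 5 lower in SKR6CA, with a median of 0.069, and SKR6-Vector was above SKR6 for 18 and below it for 3, with a median of 0.15. ID1, an inhibitor of helix-loop-helix factors and a BMP target, stood at 10.98, 10.72 and 10.79 in SKR6CA, 12.43, 12.47 and 12.48 in SKR6-Vector and 12.11, 12.03 and 12.10 in SKR6, a difference of -1.63 (SE 0.073, adjusted p = 1.36e-08). The pseudoreceptor BAMBI was at -1.08 and the ligand BMP7 at -1.07 against the vector. BMP7 stood at 9.67, 9.49 and 9.37 in SKR6CA and 10.62, 10.60 and 10.53 in SKR6-Vector, both far above 5.72, 5.24 and 5.26 in SKR6, so SKR6CA was 4.11 above SKR6. Without its _s_at probe sets BMP7 gave -0.44, with no call. ID1 was thus below both control lines, and BAMBI and BMP7 only below the vector line. The BMP receptor BMPR1B was the largest rise of the list, by 1.5, with 7.24, 7.45 and 7.37 in SKR6CA against 5.98, 5.65 and 5.93 in SKR6-Vector and 5.51, 5.02 and 5.53 in SKR6. The TGF-beta receptors TGFBR1 and TGFBR2, named after their values were seen, differed by -0.70 and -0.59.

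In the list of CDK inhibitors, D cyclins and p53 targets more members fell than rose against the vector, though not against SKR6. With the SKR6LR arrays in the model, few genes of DNA replication and mitosis were called. Of the 26 members of the CDK inhibitor list, which include drivers of the cycle as well as inhibitors, 10 fell and 2 rose, with a median of -0.14. Against SKR6, 9 were higher and 3 lower in SKR6CA, with a median of 0.22, and SKR6-Vector was above SKR6 for 9 and below it for 1. CDKN2B (p15), which is induced by TGF-beta and blocks CDK4 and CDK6, stood at 8.66, 8.57 and 8.46 in SKR6CA, 10.28, 9.99 and 10.27 in SKR6-Vector and 5.78, 5.86 and 5.49 in SKR6. It was -1.62 against the vector (adjusted p = 8.33e-07) and 2.85 against SKR6. SESN3, a stress-induced inhibitor of mTORC1, was at -1.19, the p53-induced TP53INP1 at -0.89 and 14-3-3 sigma (SFN) at -0.79. SFN alone of these 4 was also below SKR6, by a difference of -0.78. Of 40 DNA replication genes 1 rose and 1 fell, with a median of 0.0023, and of 41 genes of G2 and mitosis 4 rose and 0 fell, with a median of 0.035. The 4 were CDC25B (1.03), PLK1 (0.54), PTTG1 (0.34) and BUB1 (0.32). Without the SKR6LR arrays, whose replicates vary most, 9 replication genes were called higher and 12 lower, and 11 mitosis genes higher and 9 lower. The small count of calls thus depends on the arrays in the model. The SKR6CA and SKR6-Vector arrays did not overlap for 28 of the 40 replication genes and 24 of the 41 mitosis genes. Over all genes that share was 45.5%. Against SKR6 both transduced lines were lower, with replication medians of -0.44 for SKR6CA and -0.46 for SKR6-Vector and 24 and 20 members called lower.

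**Figure D4:**
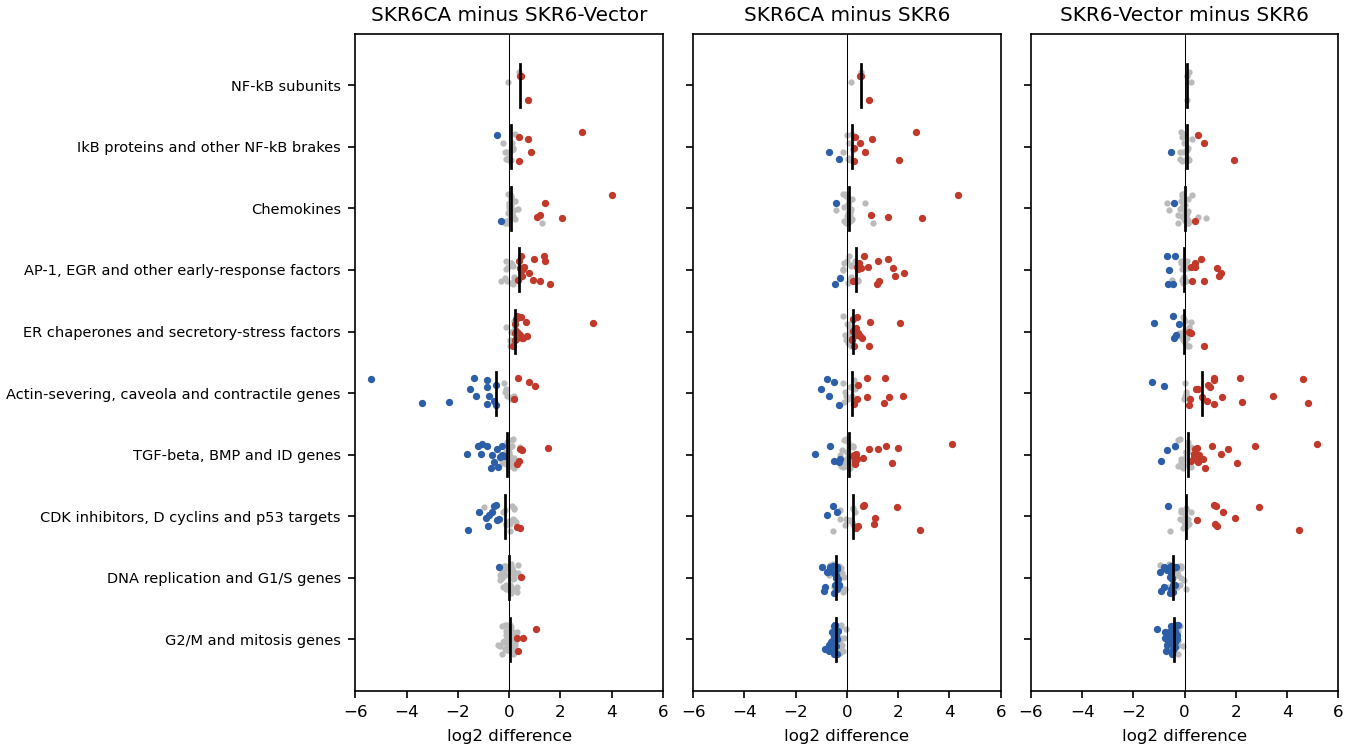
Log2 difference of each measured member (points) and the median (black bar) of 10 gene lists in 3 comparisons, SKR6CA minus SKR6-Vector (left), SKR6CA minus SKR6 (middle) and SKR6-Vector minus SKR6 (right). Red and blue points were called higher and lower, and the 3 comparisons share arrays. The early-response and ER medians lie right of 0 in the first 2 panels, the actin median lies at -0.50 in the left panel and 0.66 in the right one, and the replication and mitosis medians lie near 0 only in the left one.

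Adhesion molecules and cell junctions went both ways, in a balance that depends on the scaling. Of 36 integrins and immunoglobulin-like molecules 2 rose and 8 fell, or 6 and 7 after median centring. ICAM1, a leukocyte ligand and NF-kB target, stood at 8.74, 8.57 and 8.63 in SKR6CA, 7.61, 7.08 and 7.3 in SKR6-Vector and 7.24, 7.23 and 7.16 in SKR6, a rise of 1.32 (SE 0.318, adjusted p = 0.00784). CD44, the hyaluronan receptor, stood at 4.62, 4.83 and 4.58 in SKR6CA, 7.22, 7.24 and 7.26 in SKR6-Vector and 8.15, 8.1 and 8.03 in SKR6, a difference of -2.56 against the vector (adjusted p = 2.48e-06) and -3.42 against SKR6, and the 12 other CD44 probe sets gave -1.16 to 0.086. CEACAM6 was at -2.33 and L1CAM at -1.52. Of 36 cadherins, desmosome and tight-junction genes 4 rose and 12 fell, or 5 and 8 after median centring. CLDN1, a tight-junction claudin, was at -1.93 (adjusted p = 0.000699), the junction protein CGN at -1.09 and the desmosomal plakophilin PKP1 at -0.98. Against SKR6, CLDN1 and CGN were higher in SKR6CA, by 1.26 and 0.45, and PKP1 was lower, at -1.14. Among 23 keratins and other intermediate filaments KRT23 rose by 1.34 and KRT15 was lower, at -2.34, with 8.53, 8.42 and 8.32 in SKR6CA, 10.69, 10.80 and 10.78 in SKR6-Vector and 9.12, 9.04 and 9.08 in SKR6.

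S100 proteins and annexins divided evenly, with 8 higher and 8 lower of 27. S100A3 rose by 0.90, with 7.31, 7.27 and 7.23 in SKR6CA and 6.41, 6.56 and 6.14 in SKR6-Vector. S100A10 and ANXA2, which join in a complex at the plasma membrane, were lower at -1.14 and -0.81. ANXA2 gave -0.10 without its _x_at and _s_at probe sets. ANXA1 was at -1.34 and ANXA9 at -1.75.

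Luminal secretory products also went both ways, with 4 higher and 6 lower of 33. MUC1, a mucin of the apical surface, stood at 11.73, 11.83 and 11.75 in SKR6CA, 9.64, 9.69 and 9.62 in SKR6-Vector and 9.33, 9.34 and 9.3 in SKR6, a rise of 2.12 (SE 0.257, adjusted p = 5.95e-05), and its 3 probe sets gave 1.65 to 2.71. PIP, the prolactin-induced protein of apocrine cells, stood at 8.97, 9.18 and 9.1 in SKR6CA, 11.44, 11.58 and 11.43 in SKR6-Vector and 11.98, 11.95 and 11.99 in SKR6, a difference of -2.4 (adjusted p = 8.28e-07). The mammaglobin SCGB2A2 was at -1.59, with 9.36, 9.57 and 8.96 in SKR6CA, 10.74, 11.03 and 10.87 in SKR6-Vector and 12.53, 12.54 and 12.54 in SKR6, and the small mucin MUCL1 was at -1.51. Both were highest in SKR6 and lowest in SKR6CA. OLFM4, a secreted glycoprotein of gut and gland epithelium, had the largest difference of all genes. It stood at 5.93, 6.37 and 6.25 in SKR6CA, 12.44, 12.55 and 12.62 in SKR6-Vector and 4.29, 4.49 and 4.5 in SKR6, a difference of -6.35 (SE 0.118, adjusted p = 1.26e-11). SKR6-Vector was above SKR6 by 8.11, and SKR6CA was above SKR6 by 1.76.

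Enzymes of xenobiotic metabolism held some of the clearest falls against both controls. Of 13 measured genes of the aryl hydrocarbon receptor (AHR) and its targets 3 rose and 4 fell. CYP1A1, a cytochrome that serves as a standard readout of AHR, stood at 6.17, 6.18 and 5.77 in SKR6CA, 10.03, 10.08 and 10.05 in SKR6-Vector and 9.63, 9.6 and 9.68 in SKR6. Its difference was -4.02 against the vector (SE 0.109, adjusted p = 1.57e-10) and -3.6 against SKR6 (adjusted p = 8.1e-10). CYP1B1, a second AHR target, stood at 10.63, 10.45 and 10.53 in SKR6CA, 12.74, 12.71 and 12.70 in SKR6-Vector and 12.59, 12.60 and 12.58 in SKR6, a difference of -2.18 (adjusted p = 2.34e-07), and 3 of its 4 probe sets gave -1.98 to -2.18 while the other gave -0.42. AHR itself rose by 0.38 and its partner ARNT was lower, at -0.37, both named after their values were seen. NQO1, a quinone reductase induced by AHR and NRF2, rose by 0.51. Of 38 NRF2 and antioxidant genes 10 rose and 10 fell. The mitochondrial superoxide dismutase SOD2 stood at 9.66, 10.08 and 9.96 in SKR6CA, 8.27, 8.31 and 8.31 in SKR6-Vector and 8.67, 8.66 and 8.71 in SKR6, a rise of 1.6 (adjusted p = 4.43e-05). The efflux pump ABCC3 was at -3.16 and the plasma glutathione peroxidase GPX3 at -1.27 against the vector. Neither was called against SKR6, with ABCC3 at -0.30 (adjusted p = 0.178) and GPX3 at 0.29 (adjusted p = 0.0571). Both were highest in the vector line. ABCC3 gave -0.20 on its probe set outside the _x_at and _s_at kinds.

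Receptor kinases, growth factors and their binding proteins varied one by one. Of 52 receptor tyrosine kinases and phosphatases 9 rose and 10 fell, or 10 and 9 after median centring. PTPRB, a receptor phosphatase known from endothelium, stood at 7.11, 6.88 and 7.12 in SKR6CA, 3.53, 3.55 and 3.55 in SKR6-Vector and 3.53, 3.49 and 3.58 in SKR6, a rise of 3.5 (SE 0.0707, adjusted p = 2.32e-11). Its other probe sets gave 1.2, 0.47 and 0.041. Of 5 endothelial markers, TEK was called higher, by 0.31 (adjusted p = 0.00659), and the other 4 were not called. TEK stood low in both lines, at 4.95, 4.74 and 4.69 in SKR6CA and 4.42, 4.45 and 4.58 in SKR6-Vector. The means in SKR6CA and SKR6-Vector were 3.81 and 3.89 for KDR, 5.68 and 5.69 for VWF and 6.25 and 6.12 for PECAM1. VE-cadherin (CDH5) stood at 8.18, 8.2 and 8.29 in SKR6CA, 8.09, 8.06 and 8.17 in SKR6-Vector and 5.26, 4.91 and 5.26 in SKR6, and the part of such cells in the rise of PTPRB was not tested. FGFR3 rose by 1.24 and MET by 0.78 against the vector, and both were below SKR6, at -0.43 and -0.34. IGF1R was at -0.91 and EPHA4 at -1.61. DUSP6, a phosphatase that turns ERK off, stood at 6.11, 5.56 and 6.05 in SKR6CA, 7.9, 8.13 and 7.88 in SKR6-Vector and 7.4, 7.43 and 7.35 in SKR6, a difference of -2.06 (adjusted p = 8.94e-05), and 6 of 25 feedback genes fell and 2 rose, or 3 and 4 after median centring. Of 31 growth factors, binding proteins and hormones 5 rose and 6 fell, or 7 and 6 after median centring. IGFBP3, which binds insulin-like growth factors, stood at 7.24, 6.93 and 7.04 in SKR6CA, 10.73, 10.62 and 10.72 in SKR6-Vector and 6.82, 6.85 and 6.83 in SKR6, a difference of -3.62 (adjusted p = 1.57e-10). The calcium hormone STC1 rose by 1.43 and the vasodilator ADM by 0.91, and STC1 was below SKR6, at -0.45, while ADM was above it, by 1.2.

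Of 50 WNT and NOTCH genes 14 rose and 8 fell. WNT4, a ligand that acts in mammary branching, stood at 9.76, 9.8 and 9.81 in SKR6CA, 7.63, 7.74 and 7.84 in SKR6-Vector and 7.29, 7.25 and 7.35 in SKR6, a rise of 2.05 (SE 0.165, adjusted p = 2e-06), and its 3 probe sets gave 0.56 to 2.05. TCF7L1, a transcription factor of the pathway, rose by 1.14 and the receptor FZD7 by 0.79, and both were also above SKR6, by 1.37 and 0.78. The WNT inhibitor DKK1 was at -1.07. Of 36 nuclear receptors and coregulators 6 rose and 4 fell, with NCOA7 higher by 1.68, the coactivator PPARGC1B by 1.13 and PPARG lower, at -1.15, though above SKR6 by 1.11. Of 21 prostaglandin and eicosanoid genes 2 rose and 5 fell. PLA2G4A, the cytosolic phospholipase that frees arachidonic acid, stood at 4.34, 4.34 and 4.23 in SKR6CA, 7.09, 7.45 and 7.21 in SKR6-Vector and 5.73, 5.55 and 5.64 in SKR6, a difference of -2.95 (SE 0.0854, adjusted p = 2.76e-10). Of 24 plasminogen-system and serine protease inhibitor genes 4 rose and 6 fell, or 6 and 5 after median centring, with the urokinase receptor PLAUR higher by 0.65 and the collagen chaperone SERPINH1 lower, at -1.32. PLAUR gave 0.21 without its _s_at probe set. Of 43 glycosyltransferases 5 rose and 9 fell, with ST6GAL1, which adds alpha-2,6 sialic acid, higher by 0.77.

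Of 19775 genes, 597 were called higher and 891 lower in SKR6CA than in both SKR6-Vector and SKR6, with the 2 controls not called apart. Both comparisons use the same SKR6CA arrays, so their agreement is partly built in. Controls that were not called apart can still differ. By the smaller of the 2 differences the 10 largest rises were CFB, CCL20, PTPRB, DNAAF1, MMP1, GBP1, TNFAIP3, MANEAL, TNF and FGG. DNAAF1, a factor in the assembly of ciliary dynein arms, stood at 11.15, 11.08 and 11.47 in SKR6CA, 7.77, 7.6 and 7.64 in SKR6-Vector and 8.05, 8.0 and 8.16 in SKR6, a rise of 3.56, with 0.57 on its second probe set. MANEAL, a mannosidase-like gene, rose by 2.64, with 0.12 on its second probe set. The 10 largest falls were CYP4Z1, PIP, MYRFL, CYP1B1, FAM133A, H2AC8, STK26, SUSD4, GRK5 and PON3. CYP4Z1 stood at 8.84, 8.84 and 8.89 in SKR6CA, 11.35, 11.47 and 11.48 in SKR6-Vector and 11.42, 11.44 and 11.40 in SKR6, a difference of -2.58 (SE 0.0541, adjusted p = 2.71e-11). The kinase STK26 was at -2.04, SUSD4, an inhibitor of complement, at -1.9 and the paraoxonase PON3 at -1.74. GRK5, a kinase of G-protein coupled receptors, was at -1.58 on 1 probe set and between -0.17 and 0.028, with no call, on the 3 others. Histone genes appeared among the falls, with H2AC8 at -1.91, H4C8 at -2.78 and H2BC12 at -1.02. Most histone messages lack a poly(A) tail, and arrays primed with oligo-dT then read only the part that has one.

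For many of the largest falls the SKR6 level was nearer to SKR6CA than to the vector line. Of the 355 genes lower by at least 1, the SKR6 mean was nearer to SKR6CA in 228 (64.2%) and nearer to SKR6-Vector in 127 (35.8%). Of the 213 genes higher by at least 1, it was nearer to SKR6CA in 91 (42.7%) and nearer to SKR6-Vector in 122 (57.3%). GABBR2, a subunit of the GABA-B receptor, stood at 7.8, 7.74 and 7.71 in SKR6CA, 12.03, 11.98 and 12.03 in SKR6-Vector and 6.46, 6.53 and 6.51 in SKR6, a difference of -4.26 that left SKR6CA above SKR6, by 1.25. Its 4 probe sets gave -2.89 to -4.26. PLXDC2 stood at 5.23, 5.06 and 5.05 in SKR6CA, 8.4, 8.52 and 8.66 in SKR6-Vector and 5.45, 5.06 and 5.15 in SKR6, and its 6 probe sets all fell, at -1.25 to -3.57. BCL11B, a transcription factor of T cells and mammary basal cells, was at -3.89, and EDIL3, an integrin ligand, at -3.29 on 1 probe set but -0.055 and 0.15 on the others. ALDH1A1, which makes retinoic acid, was at -3.28 and the steroid sulfatase STS at -2.99. By contrast TNIK, a kinase of the WNT pathway, stood at 5.48, 5.58 and 5.88 in SKR6CA, 8.6, 8.76 and 8.71 in SKR6-Vector and 7.64, 7.68 and 7.53 in SKR6, and C14orf132 was likewise below both lines, at -3.05 and -2.09. PTK7, a pseudokinase of planar cell polarity, was at -2.81 against the vector and -0.56 against SKR6.

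Among rises, ATP11A, a phospholipid flippase, stood at 9.32, 9.63 and 9.47 in SKR6CA, 5.71, 5.76 and 5.66 in SKR6-Vector and 7.02, 7.12 and 7.04 in SKR6, a rise of 3.76. Its 5 other probe sets gave 0.066 to 1.51. BPIFA4P, listed as a pseudogene by its symbol, stood at 10.28, 10.35 and 10.27 in SKR6CA, 6.69, 6.85 and 6.91 in SKR6-Vector and 7.05, 7.23 and 7.22 in SKR6, a rise of 3.48 (SE 0.0763, adjusted p = 3.06e-11). FAM83A, a scaffold protein of EGFR signalling, stood at 11.22, 11.13 and 11.34 in SKR6CA, 8.88, 8.87 and 8.79 in SKR6-Vector and 8.33, 8.49 and 8.49 in SKR6, a rise of 2.38, and its 4 probe sets gave 0.98 to 2.86. Of 3427 called genes with 2 or more probe sets, all probe sets moved the same way in 2220 (64.8%) and all were called the same way in 751 (21.9%).

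Large differences were also found at the top 5% of level, which held 989 genes with a mean of at least 11.9. TMSB4X, thymosin beta 4, which sequesters actin monomers, stood at 11.13, 11.20 and 11.19 in SKR6CA, 13.58, 13.55 and 13.58 in SKR6-Vector and 12.41, 12.39 and 12.51 in SKR6, a difference of -2.4 (SE 0.153, adjusted p = 2.66e-07). IGFBP5 was at -1.67, with 12.10, 12.09 and 12.10 in SKR6CA, 13.72, 13.61 and 13.97 in SKR6-Vector and 11.75, 11.73 and 11.67 in SKR6, and its 6 probe sets gave -1.05 to -2.50. AQP3, a channel for water and glycerol, stood at 13.78, 13.82 and 13.82 in SKR6CA, 12.36, 12.41 and 12.30 in SKR6-Vector and 13.20, 13.19 and 13.16 in SKR6, a rise of 1.45. ODC1, which makes putrescine, and SAT1, which acetylates spermine and spermidine for export, are the gate enzymes of polyamine synthesis and breakdown. ODC1 rose by 1.4, with 13.08, 12.99 and 13.01 in SKR6CA, 11.65, 11.61 and 11.60 in SKR6-Vector and 12.76, 12.75 and 12.79 in SKR6, and SAT1 by 1.38, with 12.59, 12.66 and 12.71 in SKR6CA, 11.37, 11.12 and 11.32 in SKR6-Vector and 9.52, 9.24 and 9.38 in SKR6. Both enzymes were thus higher than in either control line, ODC1 little above SKR6 (0.26) and SAT1 far above it (3.27). EFNA1, an ephrin ligand known as TNF-inducible, stood at 13.39, 13.37 and 13.41 in SKR6CA, 12.15, 12.08 and 12.10 in SKR6-Vector and 11.12, 11.23 and 11.17 in SKR6, a rise of 1.28 (adjusted p = 7e-09). The argininosuccinate synthase ASS1 rose by 1.04, and DEGS1, which completes ceramide synthesis, was at -1.39.

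Small differences of one sign also ran along chromosomes. On chromosome 16, 21.3% of 825 genes were called higher and 8.73% lower, and on chromosome 1 these shares were 16.2% and 12.3% of 1926. On chromosome 19 they were 7.2% and 16.4% of 1320 genes, and on chromosome 15 9.8% and 21.1% of 612. Genes with a mean of at least 7 were grouped in blocks of 40 neighbours in RefSeq order, a size and a level chosen after the values were seen. The medians of 227 blocks ran from -0.225 to 0.325, with 90 of every 100 between -0.159 and 0.173. The highest block, on chromosome 2 from HK2 to NEURL3, had a median of 0.325, with 24 genes called higher and 3 lower. Against SKR6 the same block gave -0.0157 for SKR6CA and -0.33 for SKR6-Vector. On chromosome 16 the block from EME2 to PKMYT1 had a median of 0.32, with 23 higher and 1 lower, and gave 0.205 for SKR6CA and -0.16 for SKR6-Vector against SKR6. On chromosome 6 the block from AHI1 to LRP11 gave 0.30. The lowest block, on chromosome 19 from ZNF526 to MARK4, gave -0.225, with 2 higher and 19 lower.

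The plot of neighbouring genes shows a run at the start of chromosome 1. The run was taken up to the first block whose median was not above 0, so its shared sign follows from that choice. Its 14 blocks, of 24 on the chromosome, reach from LINC01128 to SLC22A15 and hold 560 genes. Their medians for SKR6CA minus SKR6-Vector were 0.0438 to 0.265. In these blocks 195 genes were called higher and 70 lower. Among all genes at a level of 7 to 9, 696 of 3839 were called higher and 958 lower. At 9 to 11 the counts were 795 and 925 of 3689. Against SKR6 the medians of the run were -0.16 to 0.035 for SKR6CA and -0.3 to -0.095 for SKR6-Vector, so there the vector line held the low values. Both of these comparisons share arrays with the one that chose the run. JUN, described above as higher, is the gene at the end of a block in this run. WNT4 and GBP1, which rose, and CYP4Z1, which fell, lie within the run as well. TNFAIP3, whose promoter is shown above, lies within the chromosome 6 block from AHI1 to LRP11. CCL20 and SGPP2 lie on chromosome 2 outside the block from HK2 to NEURL3. The part of such shared shifts in the difference of a single gene was not tested, and no measurement of DNA was analysed here.

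**Figure D5:**
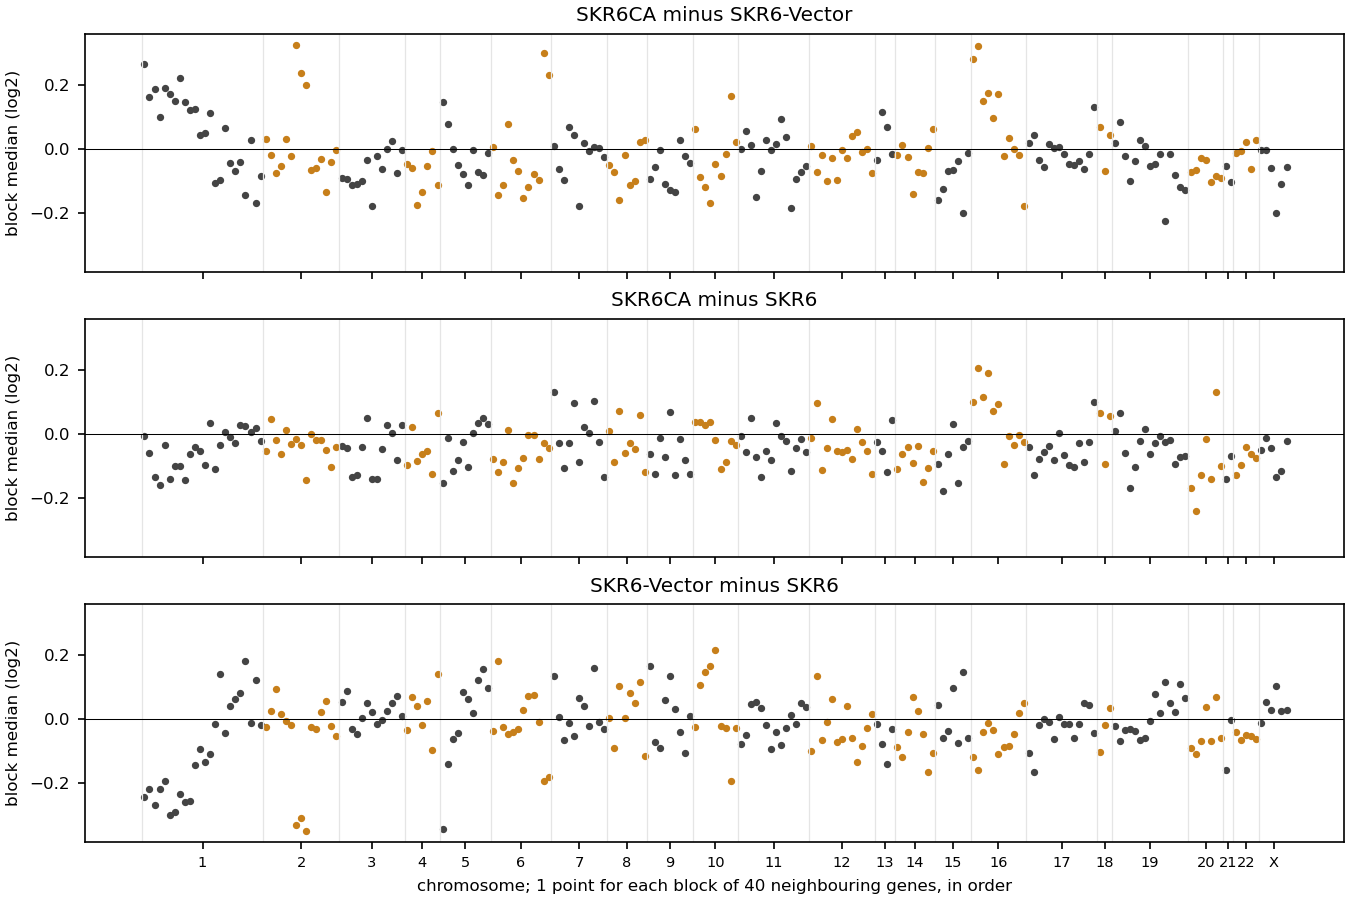
Median log2 difference of blocks of 40 neighbouring genes (points) in chromosome order, with alternating colours for chromosomes, for SKR6CA minus SKR6-Vector (top), SKR6CA minus SKR6 (middle) and SKR6-Vector minus SKR6 (bottom). The run at the start of chromosome 1 lies at 0.0438 to 0.265 in the top panel and at -0.3 to -0.095 in the bottom one, and the 3 panels share arrays.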

How the data were processed

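Total RNA of 12 cultures was hybridised to 3′ expression arrays of 54675 probe sets, 1 array a culture and 3 arrays a line. The values are log2 expression values as the authors deposited them. Per the submitters' processing notes the processing used RMA, which corrects background, normalizes and summarises probes, and limma. The sources used here give neither versions nor settings. The files hold no detection calls, so low values have no floor.

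Of the probe sets, 41097 had 1 gene symbol in the platform annotation, 1801 had several and 11777 were unnamed here. A gene was represented by whichever of its single-gene probe sets had the highest 12-array mean. All 12 arrays, with 4 line means, were fitted with limma 3.58.1 (lmFit and eBayes, R 4.3.3), p-values were adjusted by Benjamini-Hochberg over 19775 genes, and a call is an adjusted p under 0.05. The spread behind an SE is pooled over all 4 lines, the more variable SKR6LR included. The fit was tested on simulated data that gave all 4 lines the same spread. That test does not cover the larger spread of SKR6LR. Tables and figures were made with Python 3.11.15, pandas 2.3.3 and matplotlib 3.10.9. All 3 arrays of each line were used, and columns of other samples numbered 0.

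The named genes are RELA and ERBB2, then by rule the 15 largest rises and falls among called genes without overlap, the 10 largest each way among those with all of 2 or more probe sets called alike, the 10 largest differences in the top 5% of level, the 10 largest each way called against both controls, and up to 5 called members of each of the 40 lists. Not all of them are named. HSPA5, NR4A2, JUND, CLU, SERPINA1, SLC3A2, AHR, ARNT, TGFBR1, TGFBR2 and NFKB2 fall outside the rule and were named after their values were seen, and TEK, CDH5 and CDH1 are named as markers. The comparison, members and lists were chosen with earlier results of these data known, so a list's count is a description. Alternatives covered the replicate block, each array left out, the arrays in the model, the spread, the scaling, a filter on low values, the probe set and the threshold. SKR6CA and SKR6-Vector cultures with the same number correlated at 0.0948, 0.0278 and -0.0224 in their deviations from the line means, so the numbers were not taken as pairs.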

Additional observations from a re-analysis of the deposited data

How the results depend on the processing

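The count of 5251 calls between SKR6CA and SKR6-Vector was 7123 without the SKR6LR arrays, 6857 with 1 weight per line and 6629 with the 6 compared arrays alone, and it was 4055 without _x_at and _s_at probe sets and 3669 at an adjusted p under 0.01. With the replicate number as a block it was 5105, and the block changed no call of a named gene. Leaving out 1 array gave 4294 to 6236 calls, with 1850 to 2781 higher and 2417 to 3455 lower, and of the named genes REL and RIPK2 lost their call. Against SKR6, SKR6CA gave 3660 to 5960 calls with 1 array left out, and 3069 (1290 higher, 1779 lower) at the stricter threshold, where fewer genes pass by construction. SKR6-Vector against SKR6 gave 3981 to 6105 calls with 1 array left out, and for lower genes 1674 at that threshold and 4040 with line weights. The higher share of calls turned with median centring (3063 higher, 2389 lower).

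Among 177 named genes, no alternative in scaling, filter, spread or arrays in the model turned a direction. RELA gave 0.0712 as the mean of its probe sets, and without _x_at and _s_at probe sets GRK5 gave 0.028 and SERPINA1 0.0968, on other probe sets. With SKR6 as the control, 36 genes turned. Higher than the vector but at or below SKR6 were IL6R (-0.64), TIMP1 (-0.48), STC1 (-0.45), SLC1A1 (-0.45), FGFR3 (-0.43), BUB1 (-0.43), MET (-0.34), PTTG1 (-0.17), PLK1 (-0.0962), TNFRSF10B (-0.0915) and CDC25B (-0.0399). Lower than the vector but above SKR6 were OTUD7B (0.0184), EDIL3 (0.0704), TGFBR1 (0.0807), CEACAM6 (0.16), RELA (0.18), SERPINA1 (0.23), IGFBP3 (0.23), GPX3 (0.29), FBN2 (0.31), SESN3 (0.32), ANXA9 (0.34), BAMBI (0.35), DKK1 (0.36), IGFBP5 (0.38), CGN (0.45), ACTA2 (0.78), FBN1 (0.82), TP53INP1 (1.08), PPARG (1.11), GABBR2 (1.25), CLDN1 (1.26), CAV1 (1.45), OLFM4 (1.76), CDKN2B (2.85) and BMP7 (4.11). The cause was not tested. With 3 arrays a line, 1 probe set a gene and no detection calls, small differences and those of genes near the lower end of the range are the least certain.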
